A study of Mus musculus with 8 samples.

Results

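Gamma-aminobutyric acid (GABA) is the main inhibitory transmitter of the mammalian brain, and 7 of its receptor genes were followed here: Gabra2, Gabra3, Gabra5, Gabrb1 and Gabrb2, which encode subunits of the GABA-A receptor, and Gabbr1 and Gabbr2, which encode the subunits of the GABA-B receptor. They were taken by name out of 18301 genes, with earlier results of these data known. Each value is the sum of a gene's transcripts in the deposited table. The table holds 14 further GABA-A and GABA-C subunit genes, which serve for comparison. All 7 passed the filter on low counts and were among the 12898 genes tested.

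The cells were mouse neurons grown for 8 days in vitro from CGR8 cells, an embryonic stem cell line. Ribosome footprints, the mRNA fragments that ribosomes protect, were sequenced beside total RNA, so that each gene has a measure of translation and one of transcript level. There were 4 groups of 2 libraries: footprints of cells labelled as Eif4g1/Eif4g3 double knockout (DKO), footprints of wildtype (WT) cells, total RNA of DKO cells and total RNA of WT cells. Eif4g1 and Eif4g3 encode scaffold proteins that bring the ribosome to capped mRNA. All groups, WT included, were treated with the elongation inhibitor cycloheximide at 100 µg/ml for 5 minutes. The labels mark replicates by a culture code and do not say whether each code is a separate clone or differentiation; numbered codes mark WT replicate 1 and both DKO cultures, while WT replicate 2 carries only the code WT, so that p-values cover no more than the variation among these libraries. The question the design poses for these genes is whether loss of the 2 factors moves their footprints, their RNA, or the footprints relative to the RNA.

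GABA-A receptors are pentameric chloride channels, most often built of alpha, beta and gamma subunits, and the alpha subunit sets much of a channel's response to GABA and to drugs. In developing forebrain the alpha2, alpha3 and alpha5 subunits are prominent. GABA-B receptors are slow G-protein-coupled receptors that work as an obligate pair, in which the Gabbr1 product binds the transmitter and the Gabbr2 product couples to the G protein.

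Library totals ran from 10490535 to 19753419 estimated counts in footprints and from 14762047 to 44786643 in RNA. WT replicate 2 stood apart in both assays on the first principal component, which was computed for each assay alone and carried 58.8% of the variance in each. In footprints it lay at 30.6, and the other libraries between -12.8 and -7.7. In RNA it lay at 25.8, and the other libraries between -10.7 and -5.6. Eif4g1 stood at 154 and 287 CPM (estimated counts scaled by library size) in DKO footprints, against 300 and 263 CPM in WT footprints, and Eif4g3 at 164 and 172 CPM against 169 and 153 CPM. Neither was called changed, and counts of whole genes do not check a genotype that may rest on single exons. The labels call the cells cortical and glutamatergic. Of 8 glutamatergic markers, Slc17a7, Tbr1 and Fezf2 lay under 1 CPM in the mean of the libraries. Slc17a6 stood at 234 and 194 CPM in DKO footprints, against 166 and 74.3 CPM in WT footprints. Of 10 GABAergic markers, the GABA-making enzyme Gad1 stood at 183 and 173 CPM in DKO footprints, against 189 and 180 CPM in WT footprints. Gad2, Slc32a1, Sst and Npy were present as well. Dlx2 and Dlx5 lay under 1 CPM in the mean of the libraries. Mean footprints of Dlx1, Dlx6 and Lhx6 lay under 1 CPM in both genotypes. In such bulk samples fewer cells of a type and less RNA per cell cannot be told apart.

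The 7 genes lie on 6 chromosomes (GRCm38, GENCODE M21). Gabra2 (chromosome 5, 70957597 to 71095849, minus strand) and Gabrb1 (chromosome 5, 71658113 to 72149037, plus strand) share a cluster with Gabrg1 and Gabra4. Gabra5 (chromosome 7, 57407672 to 57510059, minus strand) lies in a cluster with Gabrg3. Gabrb2 (chromosome 11, 42419757 to 42629028, plus strand) lies in a cluster with Gabra6. Gabra3 (chromosome X, 72432681 to 72656848, minus strand) lies between Gabre and Gabrq. Gabbr1 (chromosome 17, 37045966 to 37075067, plus strand) and Gabbr2 (chromosome 4, 46662305 to 46991873, minus strand) stand alone. All are protein-coding genes. Whether the counting used strand is not known from the labels. The exons of Gabrb1 and the opposite-strand gene Gabra4 shared 46 of the 13838 exonic bases of Gabrb1.

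Reads of related subunits could be separated over most of their length. Of all 31-base words in the transcripts of a member, between 0% (Gabra5, Gabrb1) and 0.978% (Gabra2) were also found in another gene of the table. At most 5 such words (Gabbr2) were found in another GABA receptor gene. Of 21-base words, between 0.151% (Gabra5) and 2.68% (Gabra2) were found in another gene, and at most 12 (Gabra3) in another GABA receptor gene. The count could miss a word whose reverse complement also occurs in a member, so these values are lower bounds. The longest run shared by the coding sequences of any pair of the 5 GABA-A members was 24 bases, between Gabra3 and Gabra5. It is shown in capitals with 12 bases on either side, because it is the stretch where reads of the pair are hardest to place (Gabra3, chrX:72451574-72451621, minus strand; Gabra5, chr7:57418290-57418337, minus strand; sequences from GENCODE M21 transcripts, GRCm38).
Gabra3: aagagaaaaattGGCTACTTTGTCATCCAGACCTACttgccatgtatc
Gabra5: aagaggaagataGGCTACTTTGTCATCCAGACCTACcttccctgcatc

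Gabra2, an alpha subunit found in much of the developing and adult forebrain, had the largest footprint fold change of the 7, though not one that passed the test. Its footprints stood at 82.5 and 85.3 CPM in DKO, against 81.1 and 67.5 CPM in WT, so that both DKO libraries lay above both WT libraries. Libraries separated in that direction in 16.3% of all genes tested. Its RNA stood at 63.6 and 65.9 CPM in DKO, against 65.3 and 62.0 CPM in WT, and the groups overlapped. DKO over WT, footprints differed by 0.17 ± 0.10 (SE) on the log2 scale, with a 95% interval of -0.05 to 0.40 (adjusted p = 0.852; edgeR's quasi-likelihood test, Benjamini-Hochberg over all genes). In RNA the difference was 0.02 ± 0.10 (adjusted p = 0.994).

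Gabra3, the alpha subunit of many early and brainstem receptors, spread most between libraries. Its footprints stood at 76.2 and 82.7 CPM in DKO, against 88.9 and 56.6 CPM in WT, with the highest and the lowest value both in WT. Its RNA stood at 51.8 and 50.7 CPM in DKO, against 57.4 and 46.0 CPM in WT, again with both extremes in WT. The highest footprint value was 1.57 times the lowest, where the median gene had 1.24. On the log2 scale DKO differed from WT by 0.12 ± 0.20 in footprints (edgeR, adjusted p = 0.946) and -0.01 ± 0.20 in RNA (adjusted p = 0.999), with a footprint interval of -0.34 to 0.59 that holds changes of up to 1.51-fold.

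Gabra5, the alpha subunit of extrasynaptic receptors that carry tonic inhibition in the hippocampus, was the member with the fewest footprint counts, between 432 and 828 per library. Footprints stood at 44.96 and 42.02 CPM in DKO, against 46.6 and 34.1 CPM in WT, and RNA at 61.5 and 55.2 CPM in DKO, against 61.7 and 50 CPM in WT. The groups overlapped in both assays, with WT replicate 2 lowest. DKO over WT came to 0.10 ± 0.15 on the log2 scale in footprints (edgeR, adjusted p = 0.944) and 0.07 ± 0.15 in RNA (adjusted p = 0.983).

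The beta subunits form the GABA binding site with alpha. Gabrb1 footprints stood at 65.2 and 54.8 CPM in DKO, against 59.7 and 51.2 CPM in WT, and its RNA at 70.2 and 65.2 CPM in DKO, against 63.0 and 65.2 CPM in WT. The groups overlapped in both assays, in RNA by less than 0.1 CPM. On the log2 scale the DKO minus WT difference was 0.11 ± 0.11 in footprints (edgeR, adjusted p = 0.908) and 0.08 ± 0.11 in RNA (adjusted p = 0.95).

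Gabrb2 footprints stood at 81.8 and 83.9 CPM in DKO, against 91.6 and 70.2 CPM in WT, so that the DKO pair lay inside the WT pair. Its RNA stood at 70.2 and 69.7 CPM in DKO, against 81.6 and 72.3 CPM in WT, with both DKO libraries below both WT libraries. Libraries separated in that direction in 18.9% of all genes tested. Fitted log2 values were 0.03 ± 0.12 in footprints (edgeR, adjusted p = 0.983) and -0.14 ± 0.12 in RNA (adjusted p = 0.906), the RNA value with a 95% interval of -0.40 to 0.13.

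Of the GABA-B pair, Gabbr1 was by far the more abundant. Its footprints stood at 462 and 466 CPM in DKO, against 480 and 406 CPM in WT, and its RNA at 374 and 420 CPM in DKO, against 425 and 382 CPM in WT. DKO lay within or overlapped the WT range in both assays. Gabbr1 had log2 fold changes of 0.07 ± 0.12 in footprints (edgeR, adjusted p = 0.951) and -0.02 ± 0.12 in RNA (adjusted p = 0.995).

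Gabbr2 footprints stood at 81.0 and 103 CPM in DKO, against 98.9 and 87.6 CPM in WT, and here DKO replicate 1, not WT replicate 2, was lowest. Its RNA stood at 97.6 and 102 CPM in DKO, against 108 and 103 CPM in WT. Both DKO libraries lay below both WT libraries, as in 18.9% of all genes tested. Its log2 fold change was -0.01 ± 0.12 in footprints (edgeR, adjusted p = 0.995), the 1 negative footprint value among the 7, and -0.08 ± 0.12 in RNA (adjusted p = 0.964). At this spread a change of Gabbr2 footprints between 0.826-fold and 1.19-fold lay within the 95% interval.

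**Figure D1:**
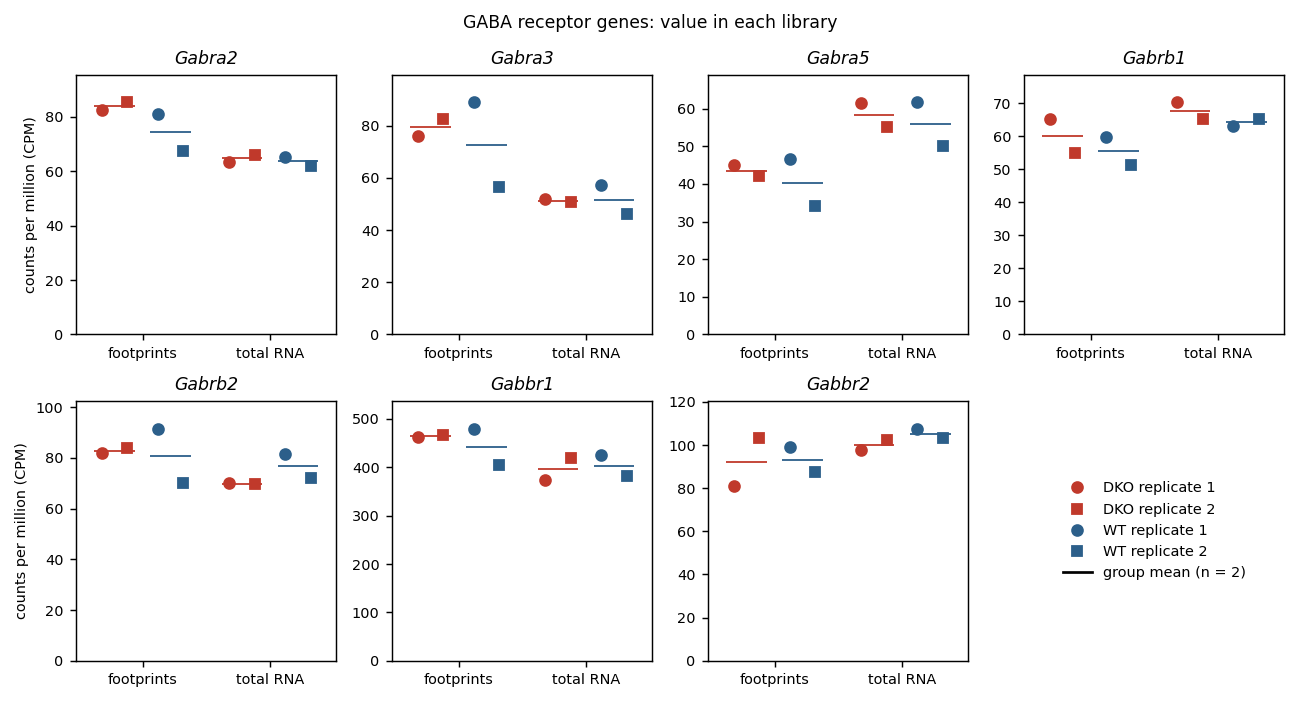
Level (CPM, counts scaled by library size) of each of the 7 GABA receptor genes in the 4 footprint and the 4 total RNA libraries, with DKO in red left of WT in blue; symbols give the replicate and bars the mean of 2 libraries. WT replicate 2 is the lowest footprint library for 6 of the 7 genes, and Gabbr1 stands between 374 and 480 CPM, above all others.

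Levels between genes were compared per length, as counts divided by transcript length and scaled to the same total in every library. On that scale Gabbr1 was first in every library of both assays, at 185 and 178 in DKO footprints, against 182 and 162 in WT footprints. Gabrb2 followed in footprints, at 91.3 and 88.2 in DKO and 95.5 and 72.2 in WT. Gabra3 and Gabra2 came next and their ranges overlapped, then Gabrb1 at 33.2 and 33.6 in DKO and 35.9 and 29.1 in WT. Gabbr2 and Gabra5 were lowest, and their ranges overlapped, at 17.9 to 23.6 for Gabbr2 and 16.3 to 21.4 for Gabra5.

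In RNA the order on the same scale differed below Gabbr1, which stood at 228 and 245 in DKO, against 250 and 221 in WT. Gabrb2, Gabra5, Gabbr2 and Gabra3 followed within 29.2 to 46.2, each overlapping its neighbour. Gabra2, at 23.8 to 25.5, and Gabrb1, at 19.9 to 23.9, were lowest and also overlapped. Gabra5 was thus last of 7 in footprints and held rank 3 in RNA on this scale, where it was not separated from Gabrb2 and Gabbr2.

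The footprint order below Gabbr1 depended on the length used. With each gene's sum divided by its longest coding sequence, DKO and WT means were 49.6 and 43.7 for Gabra2, 43.0 and 39.2 for Gabra3, 43.1 and 41.9 for Gabrb2, and 25.0 and 23.1 for Gabra5. Gabbr1 then stood at 129 in DKO and 122 in WT. Gabra2 thus held rank 2 of 7 with that length and rank 4 with transcript lengths. With each isoform divided by its own coding length, or with protein-coding isoforms only, Gabra2 held rank 7, while Gabrb1 held rank 2 and rank 3. Gabbr1 held rank 1 under all 4 settings.

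Taking the 7 together, none was called in footprints, where 0.00775% of the 12898 genes were called, and none in RNA, where 0.0155% were. None had an unadjusted p under 0.05 in either assay, and DESeq2 and limma-voom also called 0 of 7. In footprints 6 of 7 log2 fold changes were positive, with a median of 0.10, against 50.8% positive and a median of 0.00 over all genes. In RNA 3 of 7 were positive, with a median of -0.01, against 49.6% and 0.00. The 95% intervals held no change beyond 1.51-fold up or 0.79-fold down in footprints, and none beyond 1.37-fold or 0.722-fold in RNA, with Gabra3 at each of these ends.

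**Figure D2:**
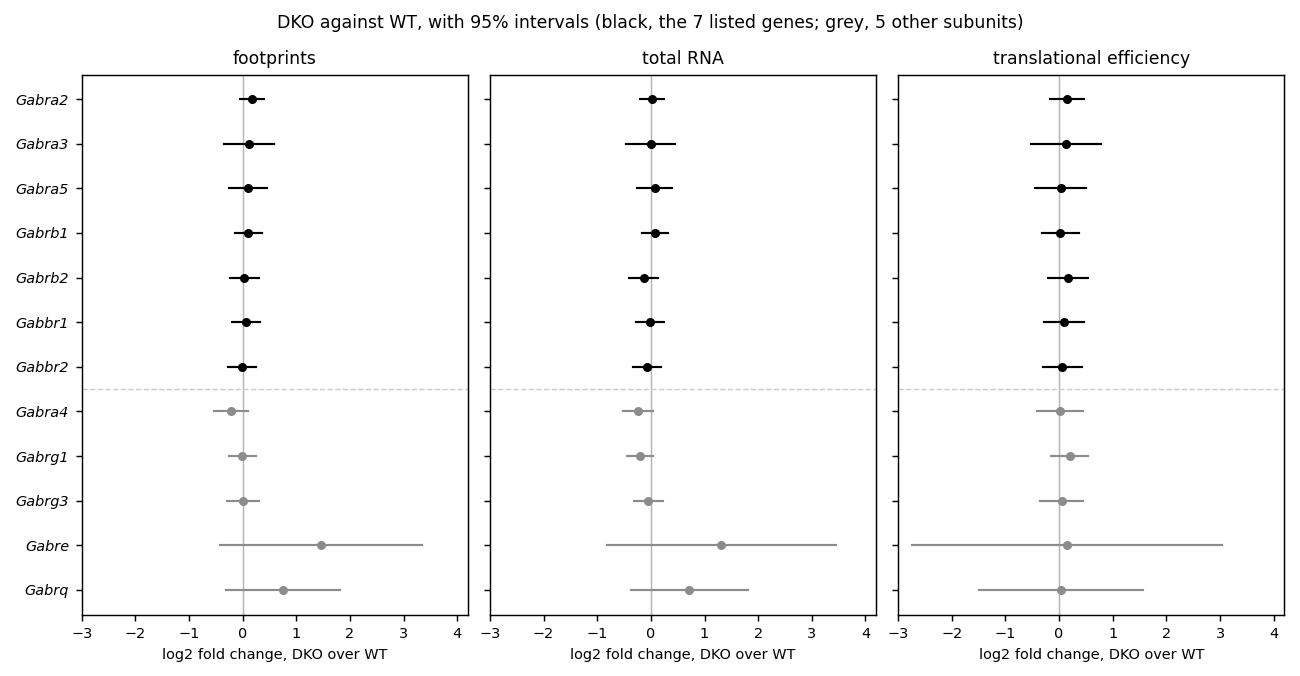
Log2 fold change of DKO over WT (points) with 95% intervals (lines) in footprints, total RNA and translational efficiency for the 7 listed genes (black) and 5 other subunit genes (Gabra4, Gabrg1, Gabrg3, Gabre and Gabrq, grey). All intervals cross 0, and those of Gabre and Gabrq are the widest, up to 3.44 on the log2 scale for Gabre RNA.

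The positive footprint values rested on 1 WT culture. WT replicate 2 gave the lowest of the 4 footprint values for 6 of 7 members, where 36% of all genes had their lowest value there, and the lowest RNA value for 3 of 7, where 31.3% did. Without both libraries of that culture, 1 of 7 members was positive in footprints, Gabra2 at 0.05, and the median was -0.10; in RNA 1 of 7 was positive and the median was again -0.10. Without WT replicate 1 instead, 7 of 7 were positive in footprints with a median of 0.26, and Gabra3 was called at 0.51 (adjusted p = 0.0344, edgeR), in a fit that called 520 genes and took the lone WT library to vary like the other groups.

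The footprint sums of the marker genes listed here had their lowest or highest value in the same culture. The pan-neuronal sum of 9 genes was 7170 and 7593 CPM in DKO footprints, against 7915 and 6603 CPM in WT footprints, lowest in WT replicate 2 like the receptors. The oligodendrocyte sum of 9 genes was 434 and 480 CPM in DKO, against 571 and 782 CPM in WT. This difference did not rest on WT replicate 2 alone. Without both libraries of that culture, 0 of 9 oligodendrocyte genes were positive in footprints, with a median of -0.36. The sum of 10 fibroblast, mural and endothelial genes was 581 and 190 CPM in DKO, against 346 and 929 CPM in WT, with Rgs5 under 1 CPM. The glutamatergic sum of 8 genes was 252 and 213 CPM in DKO, against 183 and 87.8 CPM in WT. The part of these sums in the receptor values was not tested.

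**Figure D3:**
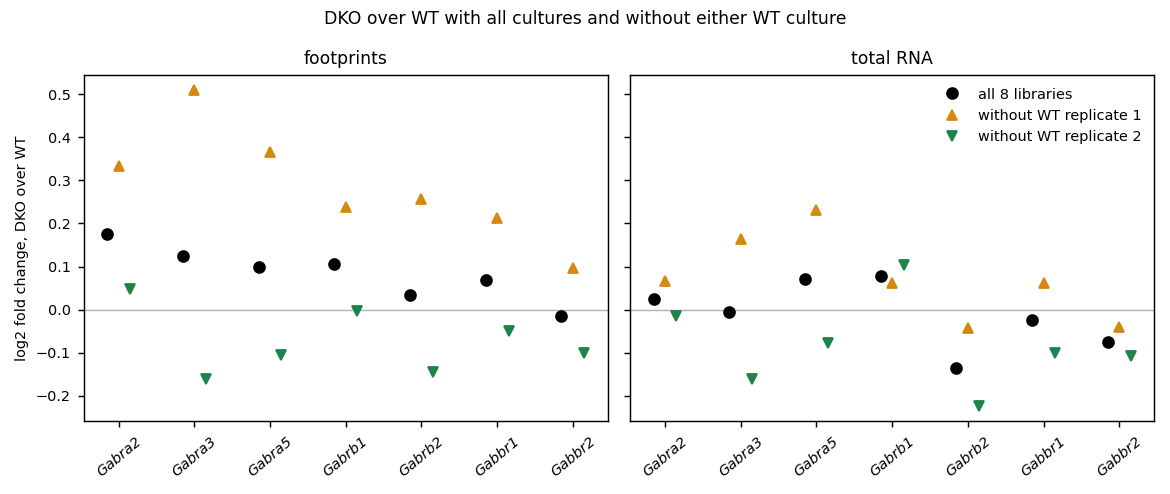
Log2 fold change of DKO over WT for the 7 genes in footprints (left panel) and total RNA (right panel), with all 8 libraries (black circles), without both libraries of WT replicate 1 (orange) and without both of WT replicate 2 (green). In footprints 7 of 7 orange points lie above 0, against 1 of 7 green points.

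Translational efficiency, the change of footprints relative to that of RNA, was tested as an interaction over all 8 libraries. None of the 7 was called, as for all other genes (0% called; 110 genes had an unadjusted p under 0.05, none of them among the 7, and DESeq2 called 1 gene and limma-voom 0). All 7 values were positive, from 0.03 ± 0.16 for Gabrb1 to 0.17 ± 0.17 for Gabrb2, with a median of 0.09, against 53.1% positive and a median of 0.01 over all genes. The adjusted p was 1 for each (edgeR). Without both libraries of WT replicate 2 the count of positive values was 5 of 7 and the median 0.01. Positive values were not particular to the 7. With all libraries, 8 of 8 other GABA-A and GABA-C subunit genes tested were positive, with a median of 0.10. The count was 9 of 10 for genes of GABA synthesis, transport and chloride balance and 8 of 9 for pan-neuronal genes. It was 16 of 22 for clustering and trafficking genes and 6 of 13 for GABA-B partners and effectors. The interval of Gabra3, -0.53 to 0.79, was the widest of the 7, and that of Gabra2 ran from -0.17 to 0.47.

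Within a genotype the level of footprints relative to RNA ran from well below to well above 0 across the 7 genes on the log2 scale. For Gabra3 the log2 ratio of footprint to RNA CPM was 0.56 and 0.70 in the DKO cultures, against 0.63 and 0.30 in the WT cultures. For Gabra5 it was -0.45 and -0.39 in DKO, against -0.40 and -0.55 in WT. The ranges of these 2 alpha subunits lay apart in every culture, Gabra3 above 0 and Gabra5 below it. Gabra2 lay at 0.38 and 0.37 in DKO, against 0.31 and 0.12 in WT, also above 0 throughout.

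The ratios of the other 4 members lay between -0.35 and 0.30. Gabrb1 lay at -0.11 and -0.25 in DKO, against -0.08 and -0.35 in WT, and Gabrb2 at 0.22 and 0.27 in DKO, against 0.17 and -0.04 in WT. The GABA-B pair lay on either side of 0 in most cultures: Gabbr1 at 0.30 and 0.15 in DKO, against 0.17 and 0.09 in WT, and Gabbr2 at -0.27 and 0.01 in DKO, against -0.12 and -0.24 in WT. In DKO the fitted difference of footprints and RNA was called for 3 of 7, against 65.4% of all genes (32.1% higher and 33.3% lower in footprints), namely Gabra2 (0.38, adjusted p = 0.00676, edgeR), Gabra3 (0.63, adjusted p = 0.0235) and Gabra5 (-0.43, adjusted p = 0.0291). In WT it was called for 1 of 7, against 65.1% of all genes (31.4% higher and 33.8% lower), namely Gabra5 (-0.46, adjusted p = 0.0217), while Gabra2 (0.23, adjusted p = 0.0734) and Gabra3 (0.50, adjusted p = 0.0575) missed the threshold. With the culture as a block Gabra2 (0.22, adjusted p = 0.0382) and Gabra3 (0.47, adjusted p = 0.000183) were called in WT too, and Gabrb2 was called in DKO (0.24, adjusted p = 0.0214). Without both libraries of either DKO culture, 0 of 7 were called in either genotype (edgeR), with adjusted p-values in DKO of 0.106 for Gabra2, 0.16 and 0.254 for Gabra3, and 0.273 and 0.2 for Gabra5, while the sign of all 3 held.

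The sign of these values depended on scaling and on the isoforms summed. Scaling within each assay lowered the difference of the median gene by 0.23 in DKO and in WT, and took Gabra2 to -0.004, Gabrb2 to -0.15 and Gabbr1 to -0.09 in WT. Summing only isoforms annotated as protein coding gave -0.83 in DKO and -0.86 in WT for Gabra2, -0.46 and -0.60 for Gabbr1, and -0.18 and -0.25 for Gabrb2. Gabra3 stayed positive and Gabra5 negative under both settings in both genotypes.

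**Figure D4:**
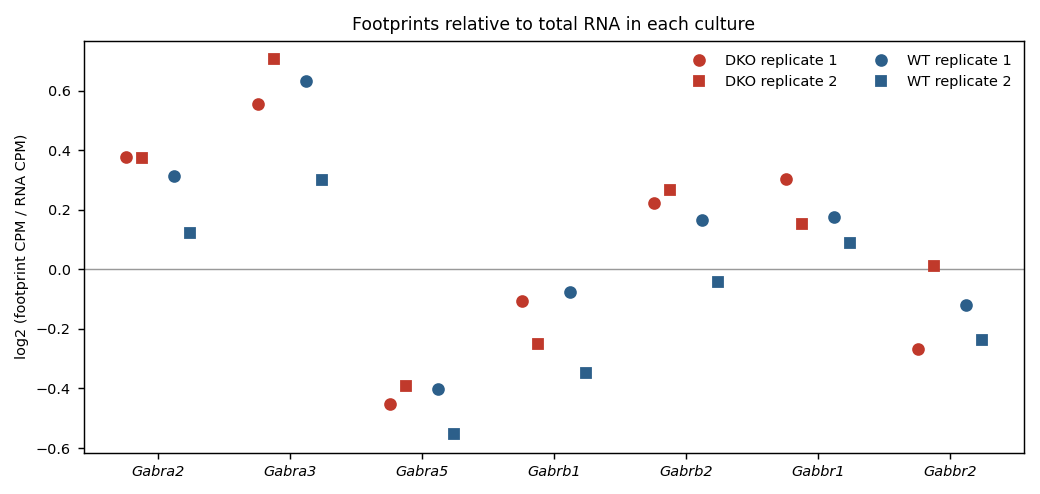
Log2 ratio of footprint CPM to total RNA CPM of each of the 7 genes in the 4 cultures, DKO in red left of WT in blue, with symbols for the replicate. Gabra3 lies between 0.30 and 0.70 and Gabra5 between -0.55 and -0.39, and the genotypes overlap for most genes.

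The isoform sums behind these settings differed between assays. Of Gabra2 footprints, 56.0% and 60.2% in DKO, against 55.3% and 55.2% in WT, were assigned to isoforms not annotated as protein coding, mainly the retained-intron isoform Gabra2-202 and the processed transcript Gabra2-206. In RNA the share was 4.44% and 3.37% in DKO, against 2.25% and 3.78% in WT. The exons of Gabra2-206 lie for 62.6% of their 684 bases in the coding sequence of Gabra2-203, a 5852-base transcript with 1353 coding bases. Such shares are estimates that divide reads among overlapping isoforms of unequal length. In the median of 9356 genes with at least 100 counts in every library, 0.83% of footprints and 1.59% of RNA lay on such isoforms. Over all counts of a library the share was 14.2% to 14.8% in footprints and 9.76% to 10.02% in RNA. Among the 9356 genes the footprint share stood at percentile 90 for Gabra2, 86.9 for Gabbr1, 79.7 for Gabrb2 and 77 for Gabra3.

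The same pattern was seen in 3 other members. Gabbr1 had 42.3% and 47.7% of DKO footprints and 44.3% and 47.6% of WT footprints on such isoforms, nearly all on Gabbr1-205, which is annotated for nonsense-mediated decay. Gabrb2 had 31.9% and 25.5% in DKO, against 26.8% and 21.9% in WT, and Gabra3 had 20.9% and 17.9% in DKO, against 24.2% and 20.9% in WT. Gabra5 and Gabrb1 had 0%, having no such isoform in the table, and Gabbr2 at most 2.01%. Gabrb1 isoforms nonetheless differed between assays: Gabrb1-202, a 799-base transcript annotated as protein coding, took 28.3% and 35.1% of DKO footprints and 35.5% and 31.5% of WT footprints, and 7.18% and 9.69% of DKO RNA and 8.72% and 7.26% of WT RNA.

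Gabrb2 footprints and RNA were assigned to different coding isoforms. Long and short forms of the beta2 subunit are known, which differ by an insert in the large intracellular loop. In the annotation Gabrb2-205 codes for 512 amino acids and Gabrb2-201 for 474, and their coding exons differ by 1 exon of 114 bases. Of the footprints on the 2 isoforms, 86.2% and 86.8% in DKO, against 89.5% and 88.1% in WT, were assigned to Gabrb2-205. Of the RNA, 0.759% and 4.07% in DKO, against 0% and 5.15% in WT, were assigned to it. Gabrb2-205 is annotated with 1539 bases, 1536 of them coding, and Gabrb2-201 with 3989 bases. How far the transcript models, which differ in this way, set the shares was not tested, and shares per isoform do not show how many reads fell in the exon. The exon is shown because it is the coding stretch that tells the forms apart (chr11:42602115-42602228, GRCm38, plus strand, GENCODE M21; capitals mark the exon, lower case the 12 coding bases before and after it in the spliced message).
Gabrb2-205 exon: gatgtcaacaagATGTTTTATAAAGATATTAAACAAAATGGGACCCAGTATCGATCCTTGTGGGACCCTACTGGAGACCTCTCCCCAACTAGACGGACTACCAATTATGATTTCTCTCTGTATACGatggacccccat

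Gabbr1 has coding isoforms with different starts. Gabbr1-201 codes for 960 amino acids, the length of the form known as GABA-B1a, whose amino end carries sushi domains and which is enriched at presynaptic terminals. Gabbr1-203 codes for 844, the length of the GABA-B1b form, which lacks those domains. They share 2387 coding bases, and 493 are found in the longer and 145 in the shorter form alone. The starts of both are shown because they begin in different exons (Gabbr1-201, chr17:37046695-37046776; Gabbr1-203, chr17:37050854-37050973; both plus strand, GRCm38, GENCODE M21; capitals mark the start codon).
Gabbr1-201 start: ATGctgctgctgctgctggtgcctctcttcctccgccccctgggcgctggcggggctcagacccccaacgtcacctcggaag
Gabbr1-203 start: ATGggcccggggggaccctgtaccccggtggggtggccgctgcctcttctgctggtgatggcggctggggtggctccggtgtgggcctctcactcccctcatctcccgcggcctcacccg

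The shorter form took most of the Gabbr1 RNA. Of all Gabbr1 RNA, Gabbr1-203 took 61.8% and 58.4% in DKO, against 57.2% and 61.1% in WT. Gabbr1-201 took 11.7% and 15.1% in DKO, against 16.8% and 17.5% in WT, so that both DKO libraries lay below both WT libraries. Gabbr1-205 took 11.4% and 12.1% in DKO RNA, against 9.59% and 6.31% in WT RNA, with both DKO libraries above. In footprints Gabbr1-201 took 9.01% and 9.12% in DKO, against 11.1% and 4.39% in WT, and the groups overlapped. Over 28813 isoforms (a mean of at least 10 counts, in genes with at least 100 counts in every RNA library and at least 2 such isoforms), the RNA shares of both DKO libraries lay below both WT libraries in 16.3% and above them in 18.9%. No model was fitted to the shares, so their differences were not tested.

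**Figure D5:**
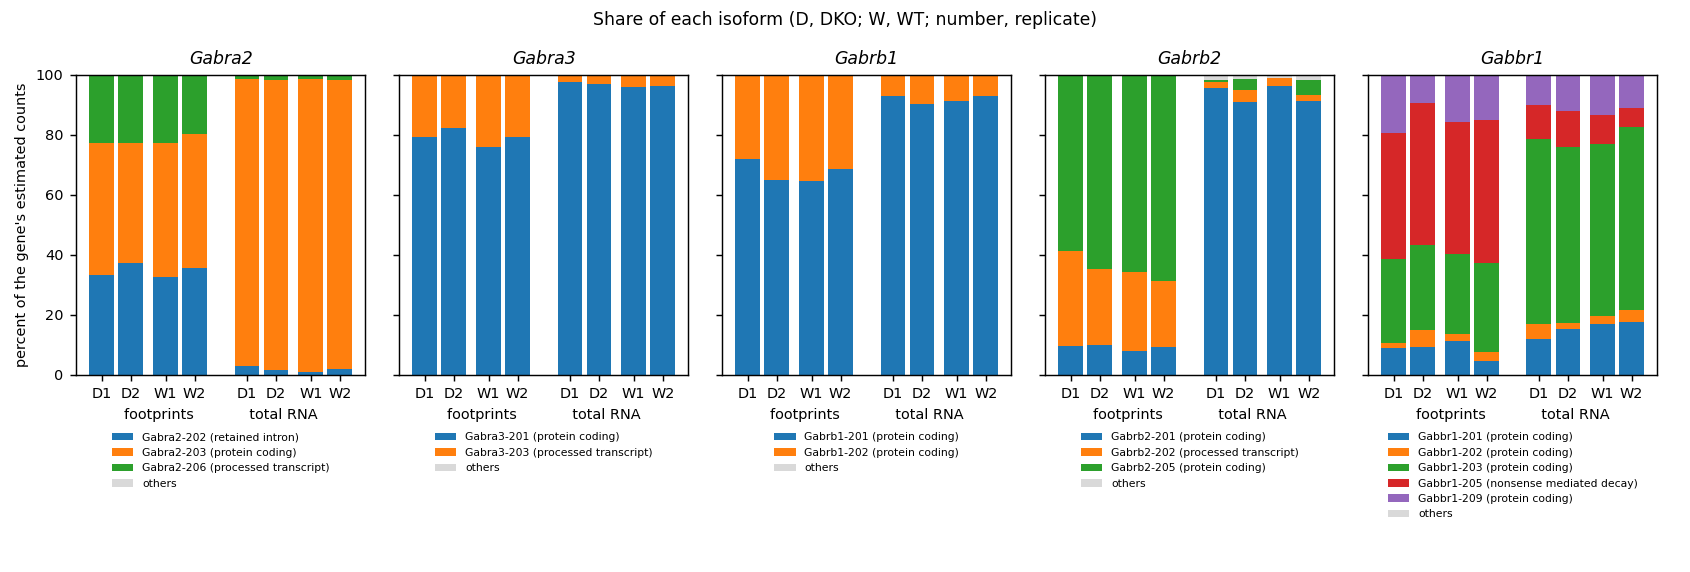
Percent of the estimated counts of Gabra2, Gabra3, Gabrb1, Gabrb2 and Gabbr1 assigned to each isoform, in footprints (left bars) and total RNA (right bars), with DKO (D1, D2) left of WT (W1, W2) in each; isoforms that stay under 3% in every library are pooled in grey. Gabrb2-205 takes 58.7% to 68.7% of Gabrb2 footprints and at most 4.96% of its RNA.

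The other GABA-A and GABA-C subunit genes gave the family background. Of 14, 8 were tested and none was called in footprints, RNA or translational efficiency (edgeR; 0 with an unadjusted p under 0.05, and 0 by DESeq2 and by limma-voom). Gabra6, Gabrd, Gabrp, Gabrr1, Gabrr2 and Gabrr3 lay under 1 CPM and were not tested. The gamma subunits Gabrg1 and Gabrg3 overlapped between genotypes in footprints, at 35.9 and 39.4 CPM for Gabrg1 and 14.47 and 15.01 CPM for Gabrg3 in DKO footprints, against 41.0 and 34.6 CPM and 16.1 and 13.3 CPM in WT footprints. In RNA Gabrg1 stood at 50.4 and 56.5 CPM in DKO, against 63.5 and 59.3 CPM in WT (-0.20 ± 0.11 on the log2 scale, edgeR, adjusted p = 0.851). Both DKO libraries lay below both WT libraries there, as in 18.9% of all genes tested. Of the 8 genes 6 were positive in footprints, with a median of 0.08, and 3 of 8 were without both libraries of WT replicate 2.

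The neighbours of Gabra3 on the X chromosome had the largest point estimates of the family. Gabre, the epsilon subunit, stood at 23.8 and 12.3 CPM in DKO footprints, against 10.2 and 2.47 CPM in WT footprints, and Gabrq, the theta subunit, at 31.9 and 25.0 CPM in DKO, against 21.9 and 11.3 CPM in WT. In RNA Gabre stood at 5.33 and 2.92 CPM in DKO, against 2.30 and 1.24 CPM in WT, and Gabrq at 16.3 and 15.1 CPM in DKO, against 13.2 and 6.42 CPM in WT. The DKO libraries lay above the WT libraries in both assays for both genes, with WT replicate 2 far below WT replicate 1. Of all genes tested, 16.3% lay above in footprints and 19.6% in RNA. Neither was called: the footprint log2 fold change was 1.46 ± 0.74 for Gabre (adjusted p = 0.849, edgeR) and 0.76 ± 0.43 for Gabrq (adjusted p = 0.854). Gabra3, between them, showed no such order.

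Gabra4, an alpha subunit of extrasynaptic receptors next to Gabrb1, was the 1 subunit gene of the 15 tested with both DKO libraries below both WT libraries in footprints as well as RNA. Of all genes tested, 16.2% lay below in footprints and 18.9% in RNA. The share that lay below in both assays at once was not computed. Its footprints stood at 11.9 and 14.2 CPM in DKO, against 14.7 and 15.9 CPM in WT, and its RNA at 25.7 and 26.1 CPM in DKO, against 27.5 and 33.5 CPM in WT. DKO over WT gave -0.22 ± 0.14 on the log2 scale in footprints (edgeR, adjusted p = 0.857) and -0.24 ± 0.13 in RNA (adjusted p = 0.851). Its footprints fell far short of its RNA in both genotypes, by -0.98 in DKO (adjusted p = 6.51e-05, edgeR) and -1.001 in WT (adjusted p = 4.64e-05). Of its cluster neighbours, Gabrg1 lay at -0.50 in DKO and -0.70 in WT, Gabrb1 at -0.18 in DKO and -0.21 in WT, and Gabra2 at 0.38 in DKO and 0.23 in WT.

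Genes that place, partner or feed the receptors were not called either. Of 22 clustering and trafficking genes, 17 were positive in footprints and 10 in RNA, and 0 were called in footprints, RNA or translational efficiency (edgeR; 1 with an unadjusted p under 0.05 in footprints and 1 in RNA; 0 by DESeq2 and limma-voom). Without both libraries of WT replicate 2, 7 of 22 were positive in footprints and 6 of 22 in RNA. The gene with a p under 0.05 in both assays was Iqsec3, an exchange factor that binds gephyrin at inhibitory synapses, at 57.6 and 55.1 CPM in DKO footprints, against 50.7 and 43.2 CPM in WT footprints (log2 fold change 0.26 ± 0.11, adjusted p = 0.849). Its RNA stood at 75.7 and 72.9 CPM in DKO, against 62.0 and 55.4 CPM in WT (0.34 ± 0.10, adjusted p = 0.851). Gphn, the scaffold gephyrin itself, stood at 178 and 167 CPM in DKO footprints, against 182 and 164 CPM in WT footprints. Mdga1, Magi2 and Gabarapl2, the others among the 3 smallest p-values of an assay, had footprint log2 values of -0.19, 0.13 and 0.14.

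Of 14 GABA-B partners and effectors 13 were tested, and 0 were called in footprints, RNA or translational efficiency (edgeR; 0 with an unadjusted p under 0.05; 0 by DESeq2 and limma-voom). The log2 fold change was positive for 6 in footprints and for 8 in RNA. Kctd12b, an auxiliary subunit of the receptor, stood at 3.02 and 2.07 CPM in DKO footprints, against 4.34 and 3.27 CPM in WT footprints (-0.62 ± 0.31, adjusted p = 0.849). Kcnj9, a subunit of the potassium channels that the receptor opens, stood at 5.08 and 5.38 CPM in DKO RNA, against 3.90 and 3.71 CPM in WT RNA (0.46 ± 0.26, adjusted p = 0.851), and its footprints lay under 2 CPM. Gnai2, a G protein alpha subunit, and Ajap1, a membrane protein that binds the receptor, had footprint log2 values of -0.19 and -0.29.

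The 10 genes of GABA synthesis, transport and chloride balance had lower RNA point estimates in DKO throughout. All 10 RNA log2 values were negative, with a median of -0.20, and in 8 of 10 both DKO libraries lay below both WT libraries, as did 18.9% of all genes tested; in 0 of 10 they lay above, as did 19.6% of all genes. In footprints 9 of 10 were negative, with a median of -0.07, and in 1 of 10 the DKO libraries lay below, as in 16.2% of all genes. None was called (edgeR; 1 with an unadjusted p under 0.05 in each assay; 0 by DESeq2 and limma-voom), and 0 were called in translational efficiency. Without both libraries of DKO replicate 1 the count of negative RNA values was 8 of 10 and the median -0.09, and without WT replicate 1 the count of negative footprint values was 5 of 10. Several of these genes are also active in glia, whose marker sums lay lower in DKO RNA. The astrocyte sum of 9 genes was 1112 and 1246 CPM in DKO RNA, against 1272 and 1468 CPM in WT RNA. Of these astrocyte genes 7 had negative RNA log2 values and 2 positive ones (Gfap 0.17, Slc1a2 0.01), and the groups overlapped for 7. The sum of 9 oligodendrocyte genes was 393 and 440 CPM against 580 and 681 CPM, with all 9 negative. The part of these glial markers in the list's values was not tested.

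Among the genes of that list with the smallest p-values, Gad2, the synthetic enzyme of nerve endings, stood at 81.5 and 94.7 CPM in DKO RNA, against 103 and 105 CPM in WT RNA, and Slc6a11, a transporter of astrocytes, at 85.5 and 118 CPM in DKO RNA, against 127 and 126 CPM in WT RNA. Slc6a13, a transporter known from the meninges, stood at 5.93 and 2.19 CPM in DKO footprints, against 5.35 and 29.6 CPM in WT footprints, with WT replicate 2 alone high.

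Across the 8 libraries, with each gene centred on its mean within an assay, Gabra3 ran closest to the other members, at a Pearson correlation of 0.91 with Gabra5 and 0.90 with Gabrb2. The lowest value between members was -0.45, between Gabrb1 and Gabbr2, and the median value with the other members was 0.38 for Gabrb1 and 0.41 for Gabbr2. Among 9230 genes with at least 10 CPM in both assays, the pairs most alike were Edem3 and Copg2 for Gabra2, Gria2 and Prdx3 for Gabra3, and Rims1 and Pcmtd1 for Gabra5. They were Zfp846 and Morc3 for Gabrb1, Ppp4r3b and Ublcp1 for Gabrb2, and Ndufv2 and Cd320 for Gabbr2, and Grin1 was among the pair for Gabbr1. Their correlations ran from 0.97 to 0.99, over 8 libraries from 4 cultures that share depth and the position of WT replicate 2, and the highest of 9230 values is high by choice.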

How the data were processed

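Translation was stopped with cycloheximide before lysis and the libraries were made with the ARTseq kit, per the labels' protocols. The submitters' processing notes name FastQC, Trimmomatic, Bowtie and kallisto and give no version. Not given in the sources used here were the transcript set, the build, the settings and the use of strand. What the authors deposited is a table of estimated counts per transcript, whole numbers throughout. GENCODE M21 holds 60444 of the 60528 transcripts (99.86%), which were summed by gene. The remaining 84, with 0.076% to 0.151% of a library, stayed out.

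The 8 libraries were fitted together with edgeR 4.0.16 (limma 3.58.1, R 4.3.3): quasi-likelihood, robust dispersions, TMM factors, a mean for each of the 4 groups and 4 residual degrees of freedom. A gene was tested if filterByExpr kept it in each assay at a minimum count of 10. A call is a Benjamini-Hochberg adjusted p under 0.05 over all 12898. CPM values use TMM library sizes, correlations add 0.5 CPM before the logarithm, and 95% intervals rest on the fitted SE.

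The members and every list were chosen with earlier results of these data known. Genes were named if they are members, other subunits, among the 3 smallest p-values per assay of a pathway list, among the 2 most alike to a member, or targeted; marker genes and Gad1 were named after their values were seen. Some genes that this rule picks are not reported here. In simulated footprints of 12898 genes, edgeR called 76 of 100 genes simulated at 2-fold, 53 of 100 at 1.5-fold and 11 with no change. In simulated RNA it called 76, 46 and 7, and in simulated translational efficiency 56, 9 and 9. The changed genes were picked at random, and counts were drawn independently in each library around 1 mean per gene. No culture effect or outlying library was simulated, so these rates are not those of the 7 members in these data.

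Footprints and RNA of a genotype with the same replicate number are read as 1 culture. Their labels carry the same culture code, except for DKO replicate 2. There the column headers of the deposited table carry similar codes for footprints and RNA, while the footprint description carries another. Its pairing, and each value that uses it, thus rests on the replicate number and on this likeness of the headers. Replicate differences correlated across assays at 0.216 in DKO and 0.658 in WT. The alternatives were other scaling (RLE, or TMM by assay), another filter (none, or a mean count of 50), DESeq2 1.42.0, limma-voom, protein-coding isoforms alone, a single assay, a replicate block, other lengths, and omission of each library or culture. A block with crossed numbers and the longest coding length were chosen after seeing the data.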

Additional observations from a re-analysis of the deposited data

How the results depend on the processing

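No member was called between genotypes under any alternative except without both WT replicate 1 libraries, which called 1 of 7 in footprints. Genes called in footprints numbered 1, and 3 without the filter, 2 at a mean count of 50, 5 with DESeq2, 11 with the replicate block, 9 with the crossed block, 0 to 9 without 1 library, and 0, 0, 520 and 4 without DKO replicate 1, DKO replicate 2, WT replicate 1 and WT replicate 2 (both libraries). In RNA they numbered 2, and 6 without the filter, 13 with DESeq2, 10 with the replicate block, 11 with the crossed block, 1 with RNA libraries alone, 0 to 7 without 1 library, 473 without WT replicate 1 and 0 without DKO replicate 1 or WT replicate 2. In translational efficiency they numbered 0, and 1 with DESeq2, 2 with protein-coding isoforms only and 0 to 1 without 1 library. Members called for footprints against RNA in WT numbered 1, and 3 with TMM by assay, 2 without the filter, 2 with DESeq2, 3 with protein-coding isoforms only, 3 with the replicate block, 1 to 2 without 1 library, 2 without WT replicate 2 and 0 without either DKO culture; in DKO they numbered 3, with 1 to 4 and 0 for the last settings. Members that changed rank per length numbered 5 in footprints with coding lengths, 5 with protein-coding isoforms only, 3 with the longest coding length and 0 to 2 without 1 library; in RNA 4, 2 and 0 to 2. Signs turned with protein-coding isoforms only for Gabrb2 footprints (-0.052), Gabrb1 translational efficiency (-0.006) and Gabra3 RNA (0.037), the last also with RLE (0.004), DESeq2 (0.002), limma-voom (0.005) and the crossed block (0.012). Footprints against RNA turned with TMM by assay for Gabra2 (-0.004), Gabrb2 (-0.154) and Gabbr1 (-0.094) in WT and Gabbr1 (-0.007) in DKO, and with protein-coding isoforms only for Gabra2, Gabrb2 and Gabbr1, at -0.834, -0.182 and -0.457 in DKO and -0.864, -0.253 and -0.597 in WT. Without 1 library, footprints ran from -0.162 to 0.5 for Gabra3, -0.105 to 0.358 for Gabra5, -0.017 to 0.235 for Gabrb1, -0.145 to 0.249 for Gabrb2, -0.049 to 0.204 for Gabbr1 and -0.2 to 0.147 for Gabbr2; RNA from -0.01 to 0.102 for Gabra2, -0.158 to 0.2 for Gabra3, -0.072 to 0.267 for Gabra5 and -0.096 to 0.097 for Gabbr1; translational efficiency from -0.156 to 0.505 for Gabra3, -0.176 to 0.286 for Gabra5, -0.096 to 0.155 for Gabrb1, -0.009 to 0.384 for Gabrb2, -0.035 to 0.226 for Gabbr1 and -0.124 to 0.222 for Gabbr2; and footprints against RNA from -0.131 to 0.263 for Gabrb2 in WT and -0.295 to 0.059 for Gabbr2 in DKO. Without both WT replicate 2 libraries, footprints turned for Gabra3 (-0.162), Gabra5 (-0.106), Gabrb1 (-0.003), Gabrb2 (-0.146) and Gabbr1 (-0.05), RNA for Gabra2 (-0.014) and Gabra5 (-0.077), and translational efficiency for Gabra5 (-0.029) and Gabrb1 (-0.107). Without WT replicate 1, Gabbr2 footprints (0.096), Gabra3 (0.164) and Gabbr1 RNA (0.061) and Gabrb2 footprints against RNA in WT (-0.018) turned. Without DKO replicate 1, Gabrb1 (-0.015) and Gabbr2 footprints (0.148), Gabra5 (-0.014) and Gabbr1 RNA (0.059), Gabrb1 translational efficiency (-0.039) and Gabbr2 footprints against RNA in DKO (0.022) turned, and without DKO replicate 2 Gabra2 (0) and Gabra3 RNA (0.009) and Gabbr2 translational efficiency (-0.09). The causes were not tested. Between genotypes, libraries of 1 number shared only the number: their deviations correlated at -0.143 in footprints and -0.103 in RNA, so the crossed block was added. Counting error limits Gabra5 most, at 432 to 828 footprint counts per library, and the spread between 2 libraries a group limits all 7.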
